A study of Mus musculus with 6 samples.

Results

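The transcripts described here are 8 markers of dendritic cells (DCs), the antigen-presenting cells that prime T cells, measured in RNA from macrophages that had been sorted from mouse ovarian tumors. They were chosen as the rows of the deposited gene table whose Ensembl mouse gene ID belongs to Flt3, Zbtb46, Xcr1, Clec9a, Cd209a, Batf3, Irf4 or Siglech, which gave 8 of the 56980 genes listed. All 8 were found, 7 passed the filter on low values used for the test, and Xcr1 did not. None of the 8 separated C5aR-/- from WT tumor-associated macrophages (TAMs). The ranges of the 2 groups overlapped for each member, and no difference passed the test. Among all 14776 tested genes, 0 passed the test either, and the groups lay apart for only 21.3%. The result for the 8 therefore does not set them apart from other genes.

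TAMs came from WT C57BL/6 mice or from mice of the C57BL/6 background that lack the C5a receptor (C5aR-/-), with 3 libraries in each group. The knockout affects every cell type of the host, DCs and their precursors included. All mice were female, were 6 to 8 weeks old when obtained and received ID8 cells, a mouse ovarian cancer line, into the peritoneal cavity. Tumors were taken 2 months later, and live CD45+CD11b+Ly6G-F4/80+ cells were sorted for poly(A) RNA sequencing. The labels do not say whether the libraries of a group came from separate mice, and the study's figure legend gives more mice per group than there are libraries here, so the p-values measure the spread between these libraries, which may in part be technical.

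DCs arise from bone marrow precursors that carry FLT3, the receptor for FLT3 ligand, and branch into conventional type 1 (cDC1), conventional type 2 (cDC2) and plasmacytoid DCs. The cDC1 branch depends on BATF3 and takes up dead cells to present their antigens to CD8+ T cells, the cDC2 branch depends in part on IRF4 and mainly serves CD4+ T cells, and plasmacytoid DCs are known for type I interferon. The sort used no DC marker: cDC2 cells carry CD11b and some carry F4/80, whereas cDC1 and plasmacytoid cells carry little of either, and monocyte-derived cells and macrophages can share several of these transcripts.

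Expression was given as TPM, a level corrected for transcript length whose values add up to 1000000 per library. The number of reads behind a value is not kept on this scale, so the counting error of a low value is unknown. From 14393 to 15015 genes reached a TPM of 1 in a library. C5ar1, which encodes the deleted receptor, stood at 86.51, 37.32 and 16.18 TPM in the WT libraries and at 0.38, 0.11 and 0.05 TPM in those from C5aR-/- mice, so the libraries matched their labels. The 10 macrophage markers were present in all 6 libraries. Their summed TPM was 2383 to 8393 in WT and 2301 to 8100 in C5aR-/- TAMs. In the same libraries 8 epithelial tumor markers summed to 1990 to 2187 TPM in WT and 1679 to 2250 TPM in C5aR-/- TAMs. For 8 mesothelial markers the sums were 1079 to 1465 TPM and 770 to 1071 TPM. The presence of macrophage markers thus does not show that the RNA was of macrophages alone. The summed TPM of the 8 DC transcripts was 39.83, 37.84 and 40.15 in WT and 60.18, 45.98 and 23.09 in C5aR-/- TAMs.

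The promoters of 4 members are shown because they belong to the 2 pairs of members whose levels ran most closely together over the libraries, Batf3 with Siglech and Flt3 with Clec9a. This choice was made after their values were seen. Each sequence covers 250 bases before and 50 bases after the transcription start site, is taken from RefSeq on GRCm38.p6 and reads 5′ to 3′ on the strand of the gene. Capitals mark each match on either strand to 1 of 4 searched motifs.
Batf3, chr1:191098164-191098463, plus strand, 1 match to the PU.1 and ETS core: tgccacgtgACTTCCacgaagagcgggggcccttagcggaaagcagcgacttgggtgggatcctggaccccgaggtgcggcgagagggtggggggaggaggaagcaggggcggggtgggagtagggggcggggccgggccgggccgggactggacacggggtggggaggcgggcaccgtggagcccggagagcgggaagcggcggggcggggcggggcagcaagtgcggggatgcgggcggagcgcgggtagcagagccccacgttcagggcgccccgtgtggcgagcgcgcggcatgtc
Siglech, chr7:55767934-55768233, plus strand, 1 match to the PU.1 and ETS core and 1 E-box: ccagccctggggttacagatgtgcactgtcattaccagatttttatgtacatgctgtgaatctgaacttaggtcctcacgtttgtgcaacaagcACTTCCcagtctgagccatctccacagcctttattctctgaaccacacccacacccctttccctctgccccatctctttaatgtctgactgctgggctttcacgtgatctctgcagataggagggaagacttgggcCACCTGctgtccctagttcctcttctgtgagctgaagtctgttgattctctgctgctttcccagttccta
Flt3, chr5:147400440-147400739, minus strand, 1 match to the PU.1 and ETS core: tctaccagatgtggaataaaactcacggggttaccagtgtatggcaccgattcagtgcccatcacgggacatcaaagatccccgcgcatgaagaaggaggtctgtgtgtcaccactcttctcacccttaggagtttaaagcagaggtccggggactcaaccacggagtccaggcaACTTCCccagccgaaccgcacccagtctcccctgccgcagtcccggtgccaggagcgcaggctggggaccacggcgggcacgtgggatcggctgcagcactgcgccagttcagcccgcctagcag
Clec9a, chr6:129408612-129408911, plus strand, no match: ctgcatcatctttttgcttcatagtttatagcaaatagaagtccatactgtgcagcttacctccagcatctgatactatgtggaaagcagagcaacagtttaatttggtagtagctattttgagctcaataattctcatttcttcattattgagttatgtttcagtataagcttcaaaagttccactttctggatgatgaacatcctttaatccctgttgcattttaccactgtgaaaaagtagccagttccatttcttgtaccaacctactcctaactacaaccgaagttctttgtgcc

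The motifs searched were GGAAGT, the core bound by PU.1 and other ETS factors, CAGGTG, an E-box of the kind bound by E proteins, TGANTCA, the AP-1 site, and the core of the interferon-stimulated response element, which is GAAA, 2 bases of any kind and GAAA again. GGAAGT had 1 match in each of 5 member promoters (Flt3, Xcr1, Cd209a, Batf3 and Siglech), and 23.8% of 32851 mouse promoters of the same length hold it. Both members of the Batf3 and Siglech pair have this core, which starts 241 bases before the start site of Batf3 and 156 bases before that of Siglech. Of the Flt3 and Clec9a pair, Flt3 has it and Clec9a does not. The whole Batf3 window lies within the locus given below for that gene, which comes from another annotation. CAGGTG was found in Zbtb46 and Siglech (20.2% of all promoters) and TGANTCA in Zbtb46 alone (7.81%). The interferon-stimulated response element core was in none of the 8, against 3.44% of all promoters, and Clec9a and Irf4 held none of the motifs. No matches overlapped each other. A match is a string of letters, not a measured binding site.

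FLT3 is the receptor tyrosine kinase that DC precursors and cDCs keep, and ZBTB46 is a transcription factor found in cDCs and their committed precursors. Flt3 (chromosome 5, 147330741 to 147400489 on the minus strand, GRCm38) had a TPM of 2.35, 2.94 and 3.95 in WT and of 3.59, 3.40 and 2.32 in C5aR-/- TAMs. The groups overlapped fully, with the lowest value in a C5aR-/- library and the highest in a WT library. Its means were 3.08 ± 0.809 (SD, n = 3) and 3.10 ± 0.685 (SD, n = 3), and the difference of C5aR-/- minus WT on the log2(TPM + 1) scale was 0.01 (SE 0.25, 95% interval -0.59 to 0.62, adjusted p = 0.987, limma with Benjamini-Hochberg adjustment). Of the tested members, Flt3 had the difference closest to 0, and its interval leaves room for a change of either sign that is smaller than 1 log2 unit.

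Zbtb46 (chromosome 2, 181387762 to 181459426, minus strand) was the most abundant of the 8 by mean TPM. It reached a TPM of 14.06, 13.63 and 17.12 in WT and of 18.61, 11.85 and 10.22 in C5aR-/- TAMs. The C5aR-/- libraries held both the highest value and the 2 lowest ones, so the WT range lay inside theirs. The difference was -0.17 (SE 0.25, 95% interval -0.75 to 0.42, adjusted p = 0.795, limma). With a mean over the 6 libraries at percentile 45.8 of the tested genes, Zbtb46 was near the middle of the transcriptome, whereas Flt3 stood at percentile 16.9.

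**Figure D1:**
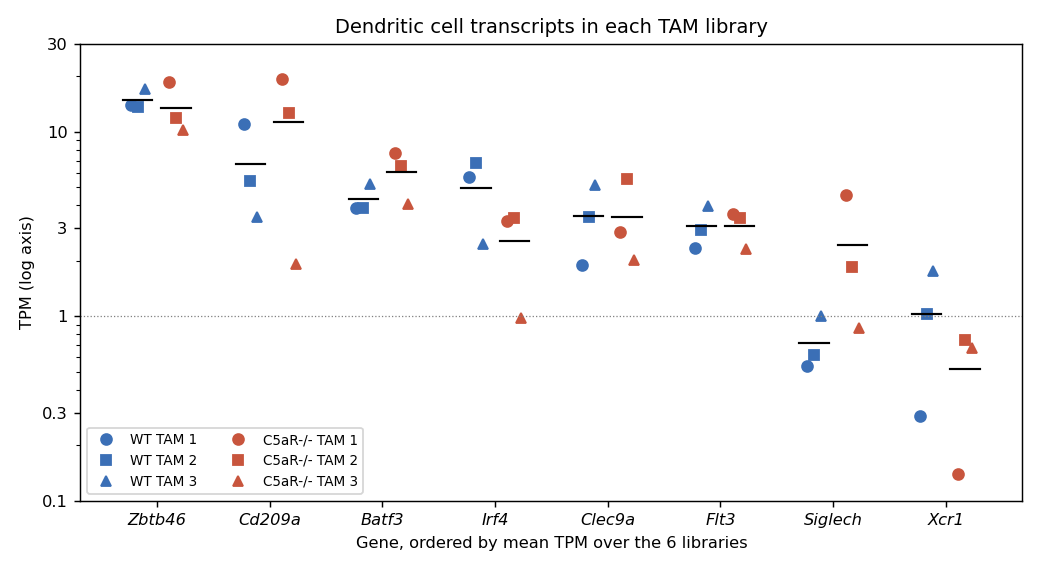
TPM of each of the 8 DC transcripts in the 3 WT and the 3 C5aR-/- TAM libraries, on a log axis, with 1 point per library (blue for WT, red for C5aR-/-), a black bar at each group mean and a dotted line at a TPM of 1. The points of the 2 groups overlap for every gene, and the widest spread on this axis is that of Cd209a in C5aR-/- TAMs, from 1.93 to 19.49.

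Of the 8 members, 3 mark the cDC1 branch: Xcr1, the receptor for the chemokine XCL1, Clec9a, a lectin receptor for actin exposed by dead cells, and Batf3, an AP-1 family transcription factor that the branch requires. Xcr1 (chromosome 9, 123852315 to 123862029, minus strand) had a TPM of 0.29, 1.03 and 1.77 in WT and of 0.14, 0.74 and 0.67 in C5aR-/- TAMs. Only 2 libraries, both WT, reached a TPM of 1, which is why Xcr1 was left out of the main test. In a fit without the filter the difference was -0.38 (SE 0.33, 95% interval -1.19 to 0.43, adjusted p = 0.697, limma over 28977 genes), and the two-sided exact permutation test gave p = 0.4. The difference in that fit was -0.12 without WT TAM 3, -0.18 without C5aR-/- TAM 1 and -0.67 without WT TAM 1. An exact test of 3 libraries against 3 cannot go below 0.1.

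Clec9a (chromosome 6, 129408862 to 129424763, plus strand) had a TPM of 1.90, 3.48 and 5.17 in WT and of 2.86, 5.56 and 2.02 in C5aR-/- TAMs. Both groups ran from about the same low to about the same high value, and the means were 3.52 ± 1.64 (SD, n = 3) and 3.48 ± 1.85 (SD, n = 3). The difference was -0.02 (SE 0.40, 95% interval -0.97 to 0.93, adjusted p = 0.985, limma), and it took the other sign under either rescaling of the libraries (0.05 after quantile normalization, 0.02 when scaled by median of ratios). Clec9a shares 184 exon bases with Clec1b, a neighboring lectin gene on the same strand whose TPM was 0.02 to 2.02, and 4.02% of its 50-base windows also occur in transcripts of another gene. The split of reads between both genes by the authors' counting is therefore uncertain.

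Batf3 (chromosome 1, 191097847 to 191108945, plus strand) had a TPM of 3.88, 3.87 and 5.22 in WT and of 7.65, 6.53 and 4.08 in C5aR-/- TAMs. C5aR-/- TAM 1 and 2 lay above all WT libraries and C5aR-/- TAM 3 lay among them. The means were 4.32 ± 0.777 (SD, n = 3) and 6.09 ± 1.83 (SD, n = 3), with a difference of 0.39 (SE 0.26, 95% interval -0.24 to 1.02, adjusted p = 0.547, limma) that was 0.23 without C5aR-/- TAM 1 and 0.61 without C5aR-/- TAM 3. The 3 cDC1 transcripts did not share an order of libraries: WT TAM 3 was highest for Xcr1, C5aR-/- TAM 2 for Clec9a and C5aR-/- TAM 1 for Batf3. Xcr1 stayed below Clec9a and below Flt3 in 6 of 6 libraries.

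Cd209a, a C-type lectin of cDC2 and of monocyte-derived DCs, and Irf4, a transcription factor of cDC2 that B cells, plasma cells and some macrophages also use, stand for the cDC2 branch. Cd209a (chromosome 8, 3743397 to 3748984, minus strand) had a TPM of 11.11, 5.45 and 3.45 in WT and of 19.49, 12.63 and 1.93 in C5aR-/- TAMs. C5aR-/- TAM 1 and 2 were above every WT library and C5aR-/- TAM 3 was below every one. The means were 6.67 ± 3.97 (SD, n = 3) and 11.4 ± 8.85 (SD, n = 3), and the difference of 0.41 had the widest interval of the tested members (SE 0.75, 95% interval -1.39 to 2.21, adjusted p = 0.839, limma). Its sign rested on 1 library: without C5aR-/- TAM 1 the difference was -0.15.

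The other genes of the Cd209 family were low. Cd209c, the next most abundant, had a TPM of 2.01 to 5.75 over the 6 libraries, and only Cd209a and Cd209c of 7 listed genes passed the filter. None of the 50-base windows of Cd209a occurred in the transcripts of another gene.

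Irf4 (chromosome 13, 30749226 to 30766976, plus strand) had a TPM of 5.70, 6.82 and 2.47 in WT and of 3.30, 3.41 and 0.98 in C5aR-/- TAMs. The third library was the lowest of its group on both sides, and WT TAM 3 lay below C5aR-/- TAM 1 and 2. The means were 5.0 ± 2.26 (SD, n = 3) and 2.56 ± 1.37 (SD, n = 3), and the difference of -0.76 was the lowest of the members (SE 0.44, 95% interval -1.82 to 0.30, adjusted p = 0.481, limma, two-sided exact permutation p = 0.3), and it was -0.38 without C5aR-/- TAM 3. B and plasma cell markers, which share Irf4, had a summed TPM of 136 to 559 in WT and of 100 to 579 in C5aR-/- TAMs, and their part in the level of Irf4 was not tested.

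Siglech, a sialic acid-binding receptor of plasmacytoid DCs that some tissue macrophages also carry, is the plasmacytoid member. Siglech (chromosome 7, 55768178 to 55778925, plus strand) had a TPM of 0.54, 0.62 and 1.0 in WT and of 4.54, 1.86 and 0.87 in C5aR-/- TAMs. C5aR-/- TAM 1 and 2 exceeded all WT libraries, and C5aR-/- TAM 3 fell below WT TAM 3. The gene passed the filter with exactly 3 libraries at a TPM of 1 or more, 1 WT and 2 C5aR-/-. The means were 0.72 ± 0.246 (SD, n = 3) and 2.42 ± 1.90 (SD, n = 3), and the difference of 0.86 was the highest of the members (SE 0.42, 95% interval -0.14 to 1.85, adjusted p = 0.406, limma, two-sided exact permutation p = 0.2).

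Over the 7 tested members, 4 differences were above 0 and 3 below, with a median of 0.01, beside 44.5% above 0 and a median of -0.05 over the 14776 genes tested. At a fold change of 2 or more with an adjusted p under 0.05, 0 members were called and 0% of all tested genes were, although 2133 genes had an unadjusted p under 0.05 at any fold. At the same fold with an unadjusted p under 0.05, 0 of 7 members were called, against 4.96% of the tested genes (2.13% higher and 2.84% lower in C5aR-/- TAMs). The groups did not overlap for 0 of 8 members and for 21.3% of the tested genes. Adjusted p-values of the members ran from 0.406 to 0.987 in limma. In these bulk samples, fewer DCs and less RNA per cell cannot be told apart, and intervals as wide as that of Cd209a do not show that the groups were alike.

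**Figure D2:**
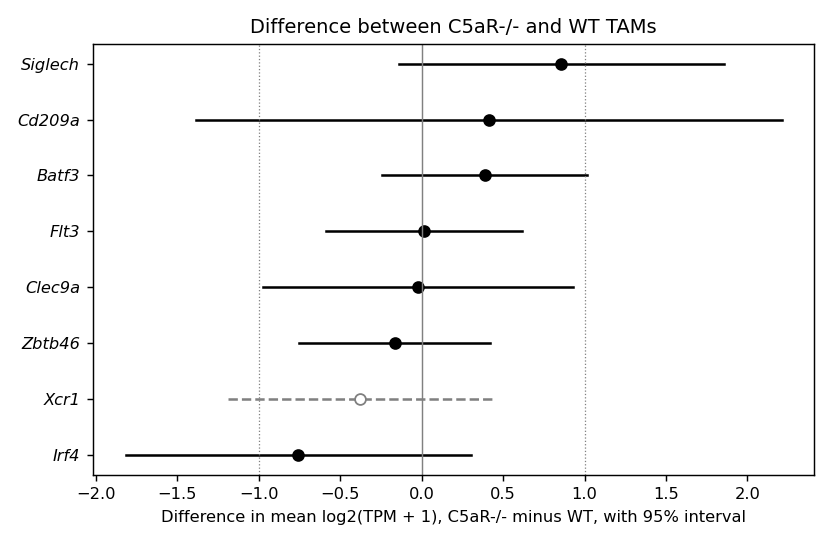
Difference in mean log2(TPM + 1) between C5aR-/- and WT TAMs for each member, with the 95% interval from limma and dotted lines at a fold change of 2. Xcr1, drawn open and dashed, comes from the fit without a filter. Every interval crosses 0, from -0.76 for Irf4 to 0.86 for Siglech.

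By mean TPM over the 6 libraries the order was Zbtb46 (14.2), Cd209a (9.01), Batf3 (5.21), Irf4 (3.78), Clec9a (3.50), Flt3 (3.09), Siglech (1.57) and Xcr1 (0.773). The ranges of all 7 neighboring pairs in this order overlapped, so no neighbor was set apart from the next beyond the spread between libraries. Genes farther apart did separate: Zbtb46 exceeded Batf3 in 6 of 6 libraries.

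The members also differed in which libraries they favored. Cd209a followed the mean log2(TPM + 1) of the 10 macrophage markers over the 6 libraries (Pearson's r = 0.904, exact permutation p = 0.0264, adjusted p = 0.249, Spearman's rho = 0.886, exact permutation p = 0.0333, adjusted p = 0.373), and r was 0.890 without WT TAM 1 and C5aR-/- TAM 1. Xcr1 ran against the same markers (r = -0.891, exact permutation p = 0.0181, adjusted p = 0.249, rho = -0.829, exact permutation p = 0.0583, adjusted p = 0.373), with r = -0.601 without those libraries. Adgre1, which encodes the F4/80 used in the sort, had a TPM of 114.35, 45.75 and 25.35 in WT and of 91.14, 40.09 and 27.93 in C5aR-/- TAMs, so within each group the libraries with more macrophage transcript were those with more Cd209a.

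Flt3 followed MHC class II genes and their regulator CIITA, which DCs, B cells and activated macrophages express (r = 0.946, exact permutation p = 0.00694, adjusted p = 0.222, rho = 0.943, exact permutation p = 0.0167, adjusted p = 0.373), and r was 0.926 without WT TAM 1 and 3. Irf4 followed B and plasma cell markers (r = 0.841, exact permutation p = 0.0389, adjusted p = 0.249, rho = 0.60, exact permutation p = 0.242, adjusted p = 0.552), but r was 0.175 without WT TAM 3 and C5aR-/- TAM 3, so this relation rested on those libraries. Flt3 also followed T and NK cell markers (r = 0.871, exact permutation p = 0.0375, adjusted p = 0.249, rho = 0.829, exact permutation p = 0.0583, adjusted p = 0.373), with r = 0.408 without WT TAM 1 and C5aR-/- TAM 3. Cd209a followed B and plasma cell markers (r = 0.837, exact permutation p = 0.0472, adjusted p = 0.252, rho = 0.829, exact permutation p = 0.0583, adjusted p = 0.373), with r = 0.192 without WT TAM 3 and C5aR-/- TAM 3, so both of these rested on the libraries left out. These are the 6 relations with an unadjusted p under 0.05 for r, of 32 between members and cell type lists that were computed after the values were seen, and none passed the adjustment.

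**Figure D3:**
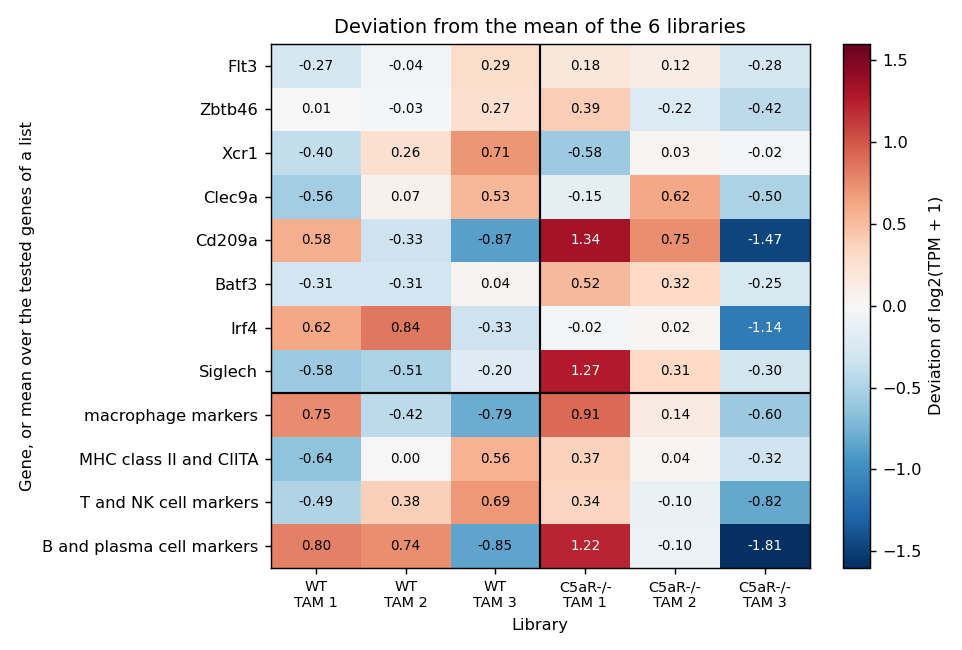
Deviation of log2(TPM + 1) from the mean of the 6 libraries for each member (upper rows) and for the mean over the tested genes of 4 marker lists (lower rows), in the WT (left) and C5aR-/- libraries (right). Red is above and blue below the mean. Cd209a and the macrophage markers are both highest in C5aR-/- TAM 1, at 1.34 and 0.91, and both below the mean in WT TAM 2, WT TAM 3 and C5aR-/- TAM 3.

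Among the 28 pairs of members, Batf3 and Siglech ran together most closely (r = 0.940, exact permutation p = 0.00278, adjusted p = 0.0778, rho = 0.943, exact permutation p = 0.0167, adjusted p = 0.467). Without C5aR-/- TAM 1 and 2, which were highest for both, r was 0.835. Flt3 and Clec9a came next (r = 0.822, exact permutation p = 0.0556, adjusted p = 0.661, rho = 0.657, exact permutation p = 0.175, adjusted p = 0.789), but r fell to 0.338 without WT TAM 1 and C5aR-/- TAM 3. No pair passed the adjustment.

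The tested genes with the profiles most like each member are given as a description, since each is the highest of 14775 correlations over 6 libraries of 2 groups. They were Smpd1 (r = 0.993) and Hsd3b7 (r = 0.992) for Flt3, Gm49602 (r = 0.996) and Zcchc2 (r = 0.989) for Zbtb46, and Ercc4 (r = 0.981) and 1600014C10Rik (r = 0.978) for Clec9a. For Cd209a they were Rhoh (r = 0.997) and Trib1 (r = 0.990), and for Batf3 Osbpl7 (r = 0.991) and Tssc4 (r = 0.990). Irf4 was most like Rock1 (r = 0.994) and Tm2d3 (r = 0.992), and Siglech most like Lrch3 (r = 0.998) and Lrrc58 (r = 0.994). From 13 to 104 genes had r over 0.95 with a given member, and no member was the closest gene of another.

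The wider DC program was read from 5 lists, for shared DC genes, cDC1, cDC2, plasmacytoid and migratory mature DCs, which together hold 72 genes. Of these 64 were tested, 33 with a difference above 0 and 31 below, with a median of 0.02. At the adjusted threshold 0 were called. At the unadjusted threshold 6 of 64 (9.38%, beside 4.96% of all tested genes) were called, 5 higher and 1 lower. Without WT TAM 2 the count was 3. Klk1 and Fcer1a, both among the 6, passed the filter only through the group where they were high. The groups did not overlap for 9 of the 64 (14.1%, beside 21.3%).

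Among 12 shared DC genes, 7 were above 0 and the median was 0.02. Their summed TPM lay apart, at 273 to 293 in WT and 330 to 396 in C5aR-/- TAMs, whereas the sums of the other DC lists overlapped. The sums lay apart through Kit, whose own groups did not overlap: without Kit the sums of the 2 groups overlapped. Kit, the stem cell factor receptor of progenitors and mast cells, had a TPM of 28.92, 33.06 and 29.75 in WT and of 54.65, 67.99 and 85.38 in C5aR-/- TAMs, with no overlap (difference 1.13, SE 0.18, adjusted p = 0.0922, limma). It was the member of that list called at the unadjusted threshold. The other 5 tested mast cell markers pointed the other way, and mast cell genes such as Mcpt4, a mast cell protease, had a TPM of 12.40, 12.02 and 22.38 in WT and of 0.25, 0 and 0 in C5aR-/- TAMs. Of these 5, Mcpt4 and Fcer1a passed the filter only through the WT libraries, so their direction was tied to their being tested. Cpa3 and Tpsb2 reached a TPM of 1 in the WT libraries and, of the C5aR-/- ones, in C5aR-/- TAM 1 only. Nfil3 and Id2, regulators of DC fate, had differences of 0.65 and -0.08 with overlapping groups. Itgax, chosen with its values known, encodes the DC integrin CD11c and reached 4.26, 5.92 and 13.83 TPM in WT and 10.05, 17.43 and 20.93 TPM in C5aR-/- TAMs, with overlapping groups (difference 1.02, adjusted p = 0.361, limma).

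Of 14 cDC1 genes 11 were tested, 3 above 0 and 8 below, with a median of -0.05 and 0 called at the unadjusted threshold. The most abundant, Naaa, Rab7b and Cadm1, had differences of -0.11, 0.09 and -0.05. Of the tested genes, Ifi205, an interferon-inducible gene named after its values were seen, had groups that did not overlap, at a TPM of 14.62, 16.82 and 22.64 in WT and of 5.25, 10.64 and 12.15 in C5aR-/- TAMs (difference -0.93, adjusted p = 0.280, limma). Gcsam, which was under the filter and not tested, lay apart in the same direction at 0.78 to 1.49 TPM in WT and 0.28 to 0.70 TPM in C5aR-/- TAMs.

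Of 14 cDC2 genes 13 were tested, 8 above 0 and 5 below, with a median of 0.20. Mgl2, a lectin shared by cDC2 and macrophages, had a TPM of 7.61, 3.84 and 3.37 in WT and of 28.83, 22.43 and 6.98 in C5aR-/- TAMs (difference 1.65, adjusted p = 0.254, limma), and C5aR-/- TAM 3 overlapped WT TAM 1. Fcer1a, the IgE receptor chain that mast cells carry as well, had a TPM of 2.94, 1.95 and 3.66 in WT and of 0.15, 0 and 0 in C5aR-/- TAMs (adjusted p = 0.0666, limma). Fcer1a passed the filter only through the WT libraries, so its direction was tied to its being tested. Its direction was that of the mast cell proteases, whose part in it was not tested. Klf4, Esam and Sirpa, the most abundant of the list, had differences of 0.56, -0.36 and 0.31 with overlapping groups.

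Of 17 plasmacytoid genes 13 were tested, 9 above 0 and 4 below, with a median of 0.33, which was 0.12 without C5aR-/- TAM 1 and 0.21 without WT TAM 3. Runx2, a transcription factor of plasmacytoid cells and of bone-forming cells, had a TPM of 4.96, 4.86 and 9.62 in WT and of 10.96, 14.69 and 19.20 in C5aR-/- TAMs, without overlap (difference 1.12, adjusted p = 0.210, limma). Klk1, a kallikrein, had a TPM of 0.41, 0 and 0.50 in WT and of 3.77, 1.64 and 1.48 in C5aR-/- TAMs (difference 1.29, adjusted p = 0.191, limma). Klk1 passed the filter only through the C5aR-/- libraries, so its direction was tied to its being tested. Smim5, named after its values were seen, was the third tested gene of the list without overlap, with a difference of 0.42. These 3 of 13 tested genes stand beside 21.3% of all tested genes whose groups did not overlap. Klra17, which was under the filter and not tested, also lay apart, at 0.31 to 0.66 TPM in WT and 0.74 to 0.78 TPM in C5aR-/- TAMs. Bst2, Irf7 and Ly6d, which interferon-stimulated or B cells share, were the most abundant and had differences of 0.28, -0.87 and -1.30 with overlapping groups.

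Of 15 migratory mature DC genes 6 were above 0 and 9 below, with a median of -0.07. Ccl17, a chemokine of mature DCs and of some macrophages, had a TPM of 0.61, 3.25 and 2.79 in WT and of 7.11, 12.70 and 7.97 in C5aR-/- TAMs, without overlap (difference 1.75, adjusted p = 0.165, limma). Cd200 and Il12b, named after their values were seen, lay apart in the other direction, with differences of -0.79 and -0.96. The groups thus did not overlap for 3 of the 15 genes, beside 21.3% of all tested genes. Cacnb3, Birc3 and Ccl5, the most abundant of the list, had differences of 0.14, 0.10 and -0.57 with overlapping groups.

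A list of ligands and growth factors, which also holds receptor chains such as Csf2ra, was measured as well. Of its 8 genes 2 were above 0 and 6 below, with a median of -0.19 and 0 called. Flt3l and Xcl1 are named, outside the rule and with their values known, because they encode ligands of members. Flt3l, the ligand of FLT3, was present at a TPM of 8.10, 14.95 and 16.12 in WT and of 11.40, 7.29 and 10.54 in C5aR-/- TAMs, with overlapping groups. Xcl1, the ligand of XCR1, ranged from 0.58 to 14.58 in WT and from 0.61 to 4.87 in C5aR-/- TAMs. Csf2ra, Csf1 and Il34, the most abundant of the list, had differences of -0.0049, -0.61 and -0.30. All 9 genes of the MHC class II list, which also holds CIITA and Cd74, passed the filter, with a median difference of 0.03 and 0 called. H2-Aa of that list had a TPM of 1221 to 4063 in WT and of 1822 to 2604 in C5aR-/- TAMs.

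**Figure D4:**
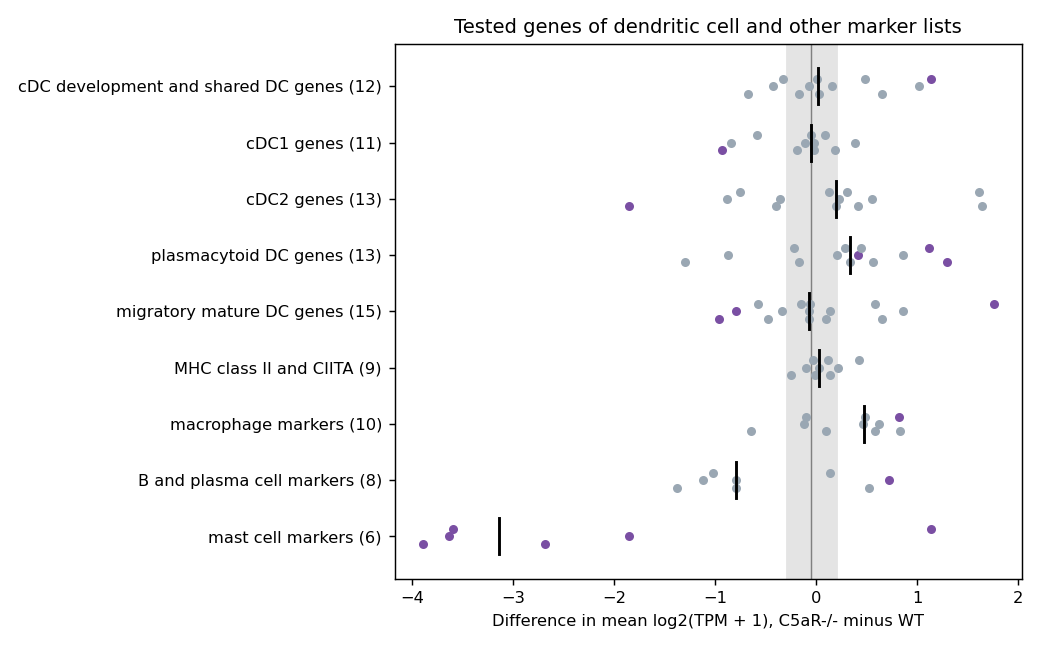
Difference in mean log2(TPM + 1), C5aR-/- minus WT, for each tested gene of the 5 DC lists and 4 other lists, with the number of tested genes in brackets. Black bars are list medians, the gray line and band are the median and the middle 50% of all tested genes, and purple points are genes whose groups do not overlap. The DC lists center between -0.07 and 0.33, and the mast cell markers at -3.14. Of the mast cell markers, Mcpt4 and Fcer1a passed the filter only through the WT libraries.

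Several lists of markers of other cell types had medians farther from 0 than those of the DC lists. In the mast cell list, Mcpt4 and Fcer1a passed the filter only through the WT libraries, which ties the direction of that median in part to the filter. The median difference was -1.89 for 7 neutrophil markers, all below 0, -3.14 for 6 mast cell markers, -1.04 for 8 monocyte markers, 3 above 0 and 5 below, -0.99 for 7 mesothelial markers and 0.47 for 10 macrophage markers. The macrophage median was 0.096 without C5aR-/- TAM 1, 0.19 without WT TAM 3, 0.30 without WT TAM 2, 0.82 without C5aR-/- TAM 3 and 0.86 without WT TAM 1. It was -0.79 for 8 B and plasma cell markers, -0.16 for 10 T and NK cell markers, -0.32 for 7 epithelial markers and -0.38 for 7 fibroblast and endothelial markers. The summed TPM of the neutrophil markers was 634 to 2356 in WT and 31.3 to 400 in C5aR-/- TAMs, without overlap. The sums of the mesothelial markers also lay apart, lower in C5aR-/- TAMs. Those of the shared DC genes were higher in C5aR-/- TAMs and lay apart only through Kit. The sums of the macrophage, MHC class II and B cell markers overlapped. The sums of the monocyte markers, 399 to 563 in WT and 131 to 341 in C5aR-/- TAMs, lay apart through Nr4a1. Without Nr4a1 they were 172 to 232 in WT and 96.8 to 230.3 in C5aR-/- TAMs and overlapped. At the unadjusted threshold 2 genes of that list were called higher in C5aR-/- TAMs, Cx3cr1 (difference 1.63) and Ace (2.14). Another 2 were called lower, Ly6c2 (-1.41) and Nr4a1 (-1.79). The part of these cells in the levels of the DC transcripts was not tested.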

How the data were processed

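Poly(A) RNA of sorted TAMs was sequenced in 3 WT and 3 C5aR-/- libraries, which were grouped by the sample labels. The authors used fastp for trimming, HISAT2 for alignment and StringTie for transcript assembly, and they deposited TPM values per gene. The submitters' processing notes also name RSEM, DESeq2 and the mm10 build. Versions, the tool that made the TPM values and the use of strand are not given in the sources used here. The 2 columns of the authors' group means were not used.

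Gene IDs were matched to symbols in GENCODE M21 (GRCm38), which named 52073 of 56980 genes. Genes were tested where 3 or more of the 6 libraries reached a TPM of 1 (14776 genes), whereas 28003 genes were listed at 0 throughout. A listed 0 may be an estimate that failed. The test was limma 3.58.1 in R 4.3.3 (lmFit and eBayes with trend) on log2(TPM + 1) with Benjamini-Hochberg adjustment over all tested genes. Fold changes are those of TPM + 1, a scale that understates the change of low genes. Single values were also compared with a two-sided exact permutation test, and correlations used all 720 pairings of the 6 libraries. Loci and exon overlaps came from GENCODE, and promoters from RefSeq, which held all 8 members. Tables were handled with Python 3.11.15, pandas 2.3.3, numpy 2.4.6 and scipy 1.17.1. The test was tested on simulated data.

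The members and lists were chosen with earlier results of these data known. Named genes are the members, C5ar1, the macrophage markers, the 3 most abundant genes of each list, list genes past the unadjusted threshold and the 2 genes most correlated with each tested member. Of these, the genes of lists for other cell types are given by counts and sums, apart from Adgre1, Mcpt4, Cpa3, Tpsb2, Cx3cr1, Ace, Ly6c2 and Nr4a1. Flt3l and Xcl1, outside the rule, and genes said to be named after their values were seen were added. The settings varied 1 at a time were the pseudocount (0.1), the filter (none, or a TPM of 5), the scaling of libraries (quantile, or median of ratios), a replicate block, eBayes without trend, and the omission of single libraries.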

Additional observations from a re-analysis of the deposited data

How the results depend on the processing

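Under 13 alternatives, 6 of which left out 1 library, 95 of 95 member values stayed uncalled. The lowest adjusted p was 0.235 (limma), for Irf4 with the replicate block. Batf3 and Siglech stayed above 0 and Irf4 and Xcr1 below 0 in all of them that gave a value. Xcr1 values come from fits without the filter. Siglech had no value at a TPM of at least 5. It also failed the filter when any library in which it reached a TPM of 1 was left out. The sign and the range given for Siglech were thus not tested without C5aR-/- TAM 1, where its level was highest. With a library left out, log2 differences ran from -0.12 to 0.16 for Flt3, from -0.40 to 0.00093 for Zbtb46, from -0.34 to 0.24 for Clec9a, from -0.15 (without C5aR-/- TAM 1) to 1.25 for Cd209a, from 0.23 to 0.61 for Batf3, from -1.11 to -0.38 for Irf4, from -0.67 to -0.12 for Xcr1 and from 0.78 to 1.22 for Siglech. Medians ran from -0.12 to 0.22 for the members, from -0.099 to 0.19 for shared DC genes, from -0.20 to 0.053 for cDC1, from -0.15 (without C5aR-/- TAM 1) to 0.46 for cDC2, from 0.12 to 0.48 for plasmacytoid genes, from 0.096 to 0.86 for macrophage markers and from -0.29 to 0.46 for MHC class II genes. Clec9a was 0.048 after quantile normalization and 0.020 when scaled by median of ratios, the member median was -0.0051 with no filter and 0.39 at a TPM of at least 5, which 3 members reached, and the migratory mature median was 0.14 at a TPM of at least 5 and 0.0071 with quantile normalization.

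Genes called over the whole table at the adjusted threshold numbered 2 with eBayes without trend and 0 to 349 with a library left out, the latter without C5aR-/- TAM 1. At the unadjusted threshold 475 were called at a TPM of at least 5, where 11177 genes were tested, and 518 to 1220 with a library left out, the latter without C5aR-/- TAM 1. The DC list genes called at that threshold numbered 3 (without WT TAM 2) to 9 (without C5aR-/- TAM 3).

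With the replicate number as a block, 811 genes were called at the unadjusted threshold and no member was called. No label states that the numbers pair the samples. Same-numbered libraries had correlations of 0.19, -0.01 and 0.27 between their deviations, which cannot settle it without differently numbered libraries beside them. Cd209a and the mean of the macrophage markers fell from library 1 to library 3 in both groups. With the block the adjusted p was 0.641 for Cd209a and 0.235 for Irf4 (limma). TPM holds no depth, so no counting error is known for the low members, Xcr1 and Siglech above all.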
